A study of Danio rerio with 25 samples.

Results

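The genes described here are 10 members and readouts of the Hippo pathway in the zebrafish heart. They are the co-activator genes *yap1* and *wwtr1*, the TEAD factor genes *tead1a*, *tead1b* and *tead3b*, the kinase genes *lats1* and *lats2*, and the target genes *ctgfa*, *cyr61* and *amotl2a*. They were set by name, with earlier results of these data known, and are 10 of the 31275 genes of the RNA table. All 10 passed the filter on low counts, which left 20745 genes. Of 61954 regions of open chromatin (peaks), 66 were annotated to 1 of the 10 genes and to no other gene, and all 66 were among the 61883 peaks tested.

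In the Hippo pathway the LATS kinases phosphorylate Yap1 and Taz (the product of *wwtr1*) and keep them out of the nucleus. When the kinases are less active, the co-activators enter the nucleus, bind TEAD factors and switch on genes such as *ctgfa*, *cyr61* and *amotl2a*. *ctgfa* and *cyr61* encode secreted matrix-associated proteins. *amotl2a* encodes an angiomotin-family junction protein that in turn restrains Yap1, and *lats2* is itself a target in mammalian cells, so that the pathway feeds back on itself. In mouse, Yap, Taz and the LATS kinases are needed in the epicardium, the sheet of cells that covers the heart muscle, for coronary vessel and fibroblast development.

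RNA was counted in 11 libraries and open chromatin, by tagmentation with the transposase Tn5 (ATAC), in 14. Adult hearts carried tcf21:BirA-mCherry and were taken 3 days after cryoinjury (3 RNA and 4 ATAC libraries) or 3 days after a sham operation (2 of each). Larval hearts at 5 days post-fertilization were untreated. With the reporter tcf21:H2B-Dendra2, larval epicardium and larval non-epicardial heart cells gave 3 RNA and 2 ATAC libraries each, and with tbx18:myr-Citrine each gave 2 ATAC libraries. *tcf21* and *tbx18* are epicardial genes, so both reporters mark cells by the activity of an epicardial promoter. Cells were sorted by fluorescence in all ATAC and larval RNA samples, whereas nuclei pulled down from adult tissue gave the adult RNA. In comparisons of adult with larval RNA, stage, transgene and purification therefore cannot be told apart, and in ATAC stage and transgene cannot. The labels do not say how many hearts or clutches a library came from, so that p-values measure the spread between these libraries.

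RNA totals ranged from 4635226 to 8371594 counts and ATAC totals from 755606 to 6248597, with the 3 lowest ATAC totals among the tcf21 larval libraries. Levels are given as CPM (counts scaled to library size) after TMM scaling. The summed level of 5 epicardial markers (*tcf21*, *tbx18*, *wt1a*, *wt1b*, *aldh1a2*) was 542 to 571 CPM after cryoinjury, 371 to 495 after sham, 515 to 1429 in larval epicardium and 10.6 to 18.3 in larval non-epicardium, and none of the 5 was at 0 in all libraries of a group. The summed level of 10 cardiomyocyte markers was 38889 to 50638 CPM after cryoinjury, 60272 to 123112 after sham, 347 to 1530 in larval epicardium and 5364 to 15810 in larval non-epicardium. Heart-muscle RNA was thus highest in the adult nuclear preparations, and its part in the adult results below was not tested.

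**Figure D1:**
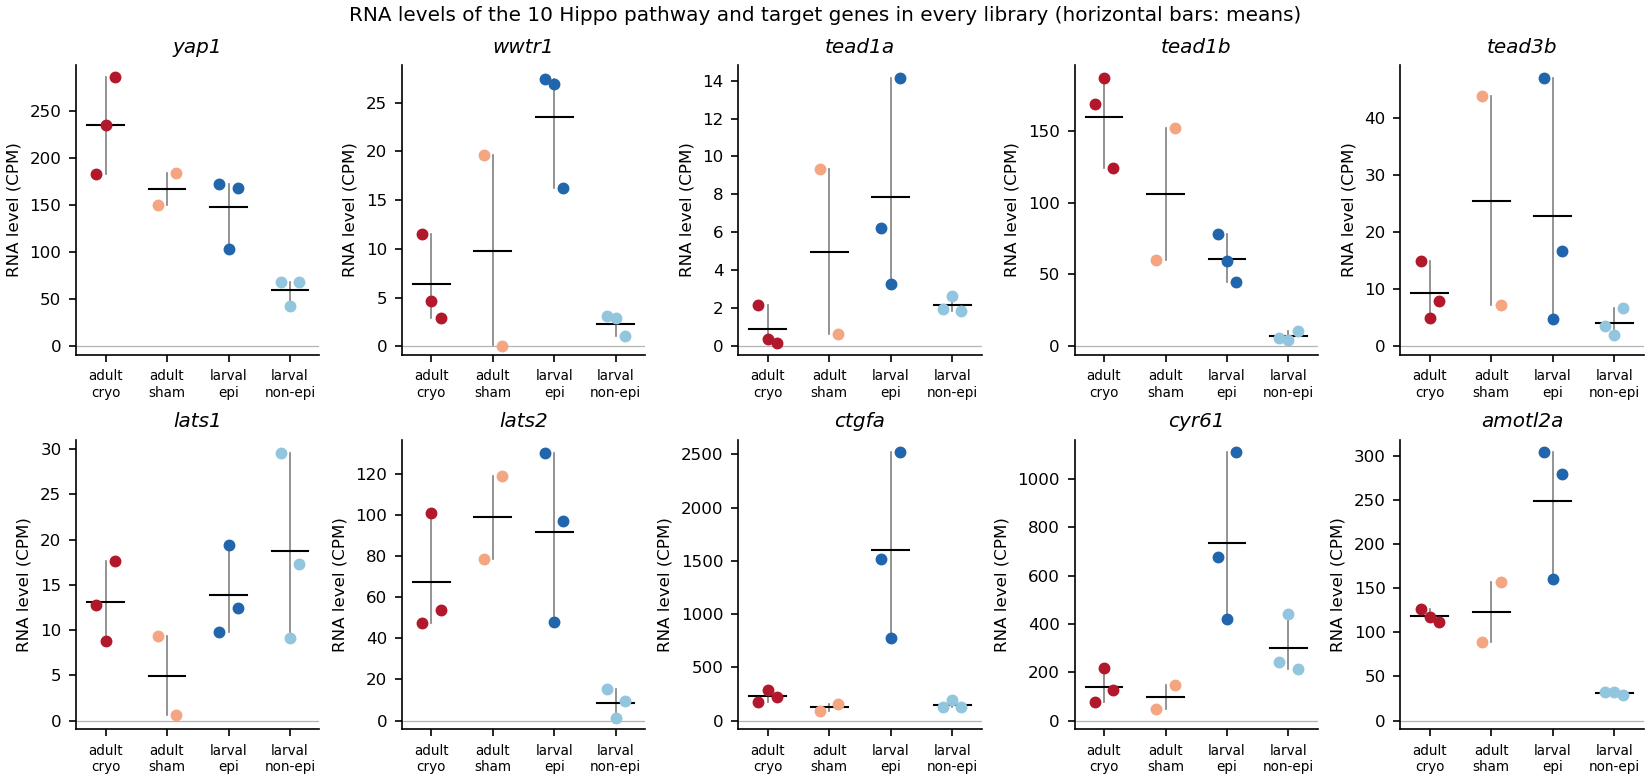
RNA level (CPM, linear axis from 0) of each of the 10 genes in all 11 RNA libraries, by group; points are libraries, horizontal bars are group means and vertical lines run from the lowest to the highest library. *ctgfa* and *amotl2a* are highest in larval epicardium, *tead1b* and *yap1* have their highest means after cryoinjury, and *wwtr1*, *tead1a*, *tead3b* and *lats1* differ widely between the sham libraries.

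Larval epicardium was first compared with larval non-epicardial heart cells. *tead1b*, *lats2*, *ctgfa* and *amotl2a* were higher in epicardium, by 7.97- to 10.7-fold. They were 4 of the 10 genes, with none lower, where 13.4% of all genes were called (5.68% higher, 7.77% lower). Calls here mean an adjusted p under 0.05 in edgeR's quasi-likelihood test with Benjamini-Hochberg adjustment over all genes. At an unadjusted p under 0.05, 8 of the 10 genes were past the threshold, as were 5527 of the 20745 genes tested. The median log2 fold change of the 10 was 2.74, against 0.32 for all genes. In bulk samples, fewer cells of a type and less RNA per cell cannot be told apart.

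Of the co-activators, *yap1* had 172, 103 and 168 CPM in epicardium and 67.7, 43.2 and 68.6 CPM in non-epicardium. Every epicardial library was above every non-epicardial one. The difference was 2.47-fold (log2 1.30, SE 0.44) and did not pass the adjustment (adjusted p = 0.0552, edgeR), although it did with median-of-ratios scaling, total-count scaling, DESeq2 and a fit of the compared groups alone. *wwtr1* had 27.5, 26.9 and 16.3 CPM in epicardium and 3.07, 2.87 and 1.04 CPM in non-epicardium, again without overlap (log2 fold change 3.32, SE 1.17, adjusted p = 0.0663, edgeR). It passed with the same alternatives and also without the filter on low counts.

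*tead1b*, which encodes a DNA-binding partner of Yap1, had 78.0, 59.5 and 44.5 CPM in epicardium and 5.96, 4.20 and 10.6 CPM in non-epicardium. The groups lay far apart, with an 8.74-fold difference (log2 3.13, SE 0.56, adjusted p = 0.000728, edgeR). Its duplicate *tead1a* was low throughout, with 6.22, 3.30 and 14.1 CPM in epicardium and 1.99, 2.68 and 1.88 CPM in non-epicardium. The groups did not overlap but the test was not passed (log2 1.84, SE 1.20, adjusted p = 0.344, edgeR). *tead3b* had 46.9, 4.74 and 16.7 CPM in epicardium and 3.61, 1.91 and 6.68 CPM in non-epicardium. One epicardial library lay within the non-epicardial range, and the difference was not called (log2 2.48, SE 0.93, adjusted p = 0.0852, edgeR). It was called with total-count scaling, DESeq2 and the compared groups alone (adjusted p from 0.00821 to 0.0391).

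The kinase genes differed in the sizes of their values. *lats2* had 130.1, 48.0 and 96.7 CPM in epicardium and 15.2, 1.34 and 9.60 CPM in non-epicardium. That was a 10.5-fold difference without overlap (log2 3.39, SE 0.71, adjusted p = 0.00262, edgeR). *lats1* had 9.74, 19.4 and 12.5 CPM in epicardium and 29.6, 9.17 and 17.3 CPM in non-epicardium. Its ranges overlapped, and its log2 difference was -0.43 (SE 0.83, adjusted p = 0.757, edgeR), or 0.24 with total-count scaling. Whether the effects on the kinase genes differ from each other was not tested.

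Among the target genes, *ctgfa* had 1520.0, 779 and 2519 CPM in epicardium and 130.4, 195 and 123 CPM in non-epicardium. The lowest epicardial library was above the highest non-epicardial one, and the difference was 10.7-fold (log2 3.43, SE 0.51, adjusted p = 0.000132, edgeR). *amotl2a* had 305, 160.4 and 279.5 CPM in epicardium and 32.3, 32.7 and 28.4 CPM in non-epicardium, a 7.97-fold difference (log2 2.99, SE 0.47, adjusted p = 0.000231, edgeR). *cyr61* had 677, 419 and 1110.1 CPM in epicardium and 241, 442 and 215 CPM in non-epicardium. One library of each group lay inside the range of the other, and the 2.46-fold difference was not called (log2 1.30, SE 0.54, adjusted p = 0.121, edgeR). It was called with total-count scaling (adjusted p = 0.0131) and with the compared groups alone (adjusted p = 0.0232, both edgeR). Markers of other cell types moved with these results, and their part was not tested. The sum of 5 red blood cell markers was 6.61 to 15.2 CPM in epicardium and 20442 to 29008 CPM in non-epicardium, that of 4 mural cell markers 15.1 to 44.3 and 304 to 912 CPM, and that of 7 leukocyte markers 9.60 to 22.8 and 75.3 to 808 CPM. The sum of 7 endothelial markers overlapped, at 118 to 187 CPM in epicardium and 92.2 to 175 CPM in non-epicardium.

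The 4 calls held without any 1 of the 6 larval libraries. More of the 10 genes passed under other settings, 8 with total-count scaling, 7 with DESeq2 and 8 with only the compared groups fitted, where 14.8%, 22.2% and 29.1% of all genes were called. Scaling moved the median over all genes of the log2 fold change, which was 0.32 with TMM, 0.45 with median-of-ratios and 0.93 with total-count scaling, and the fold changes are to be read relative to these medians.

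**Figure D2:**
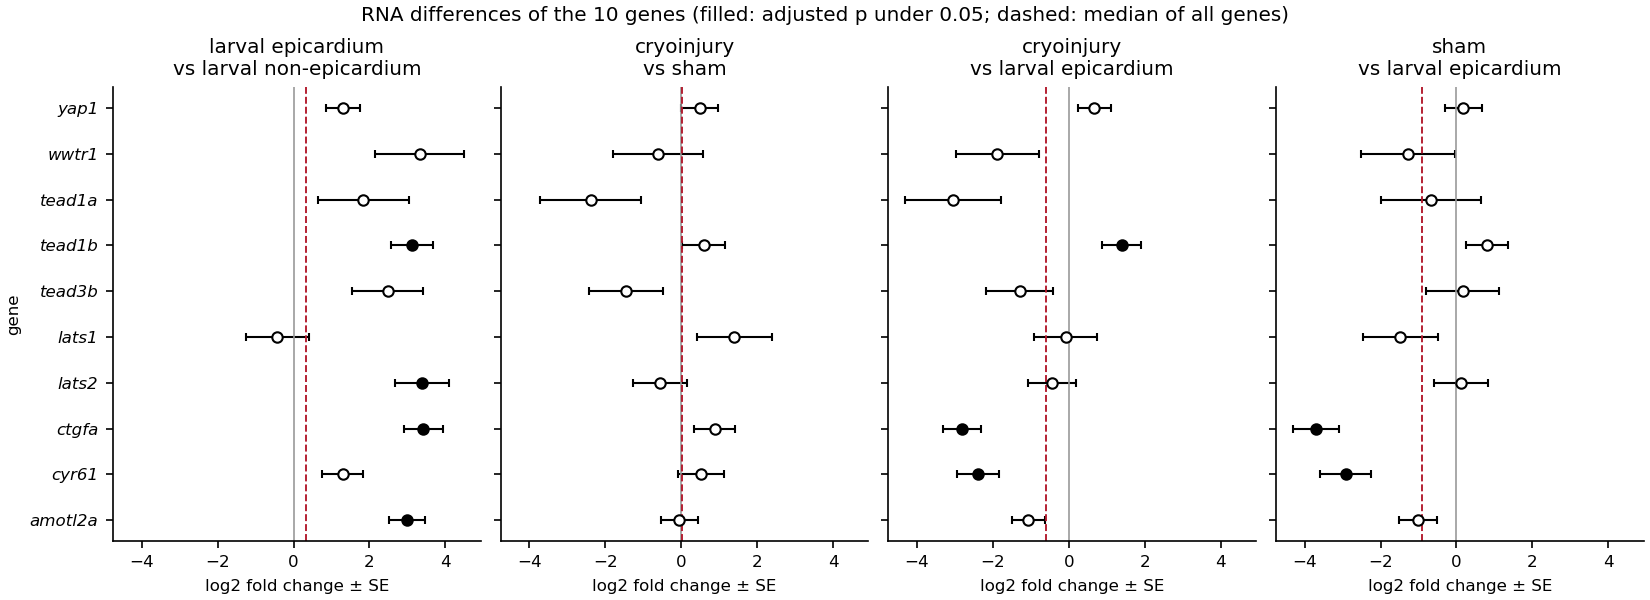
Log2 fold change ± SE of the RNA level of each gene (edgeR) in 4 comparisons, the first-named group over the second; filled points have an adjusted p under 0.05 and the dashed line is the median of all genes tested. Filled points lie at *tead1b*, *lats2*, *ctgfa* and *amotl2a* in larval epicardium over non-epicardium, at none in cryoinjury over sham, and at *ctgfa* and *cyr61* in both adult groups over larval epicardium, with *tead1b* also in cryoinjury.

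The rest of the pathway was followed with a list of further upstream genes and co-regulators, of which 35 of 52 names were in the table and 34 were tested. In larval epicardium 8 were higher (23.5%, against 5.68% of all genes) and 1 lower (2.94%, against 7.77%), with a median log2 fold change of 1.21, against 0.32 for all genes. By role, 4 of 9 junction and LIM-protein genes were higher, the kinase cascade and its activators had 4 higher and 1 lower of 19 tested, and none of 6 TEAD and co-regulator genes was called. *tjp1a*, a tight-junction scaffold gene, averaged 144 CPM in epicardium and 16.9 CPM in non-epicardium (log2 3.08, SE 0.49, adjusted p = 0.000246, edgeR). *llgl1*, a cell-polarity gene, had a log2 fold change of 3.48 and *amotl2b*, the duplicate of *amotl2a*, of 3.41. The gene that was lower, *taok3a*, encodes an upstream kinase and averaged 3.95 CPM in epicardium and 27.8 CPM in non-epicardium (log2 -2.81, SE 0.71, adjusted p = 0.0111, edgeR).

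A second list held genes often used as YAP/TEAD readouts in mammalian cells, of which 34 of 38 names were found and 33 tested. In larval epicardium 5 were higher (15.2%, against 5.68% of all genes) and 2 lower (6.06%, against 7.77%), with a median log2 fold change of 0.77. *f3b*, a tissue factor gene that starts blood clotting, averaged 2477 CPM in epicardium and 249 CPM in non-epicardium (log2 3.31, SE 0.51, adjusted p = 0.000199, edgeR). *crim1*, a transmembrane protein gene, and *asap1a*, an Arf GTPase-activating protein gene, had log2 fold changes of 3.38 and 3.19. The 2 lower genes were *birc5a*, a survivin gene needed in dividing cells, at 7.56 CPM in epicardium and 112 CPM in non-epicardium (log2 -3.89), and *thbs1b*, a matrix thrombospondin gene (log2 -2.06). With DESeq2, 13 genes of the pathway list were higher and 3 lower, and 10 and 2 of the target list. With total-count scaling the splits were 12 higher and 0 lower, and 11 and 1. All genes split 2191 higher and 2423 lower with DESeq2, and 1938 and 1125 with total-count scaling. With TMM scaling in edgeR they split 1178 and 1611. The calls on the pathway list fell to 4 without larval epicardium replicate C or without non-epicardium replicate B or C. In these fits 11.4%, 7.58% and 9.71% of all genes were called, against 13.4% with all libraries.

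**Figure D3:**
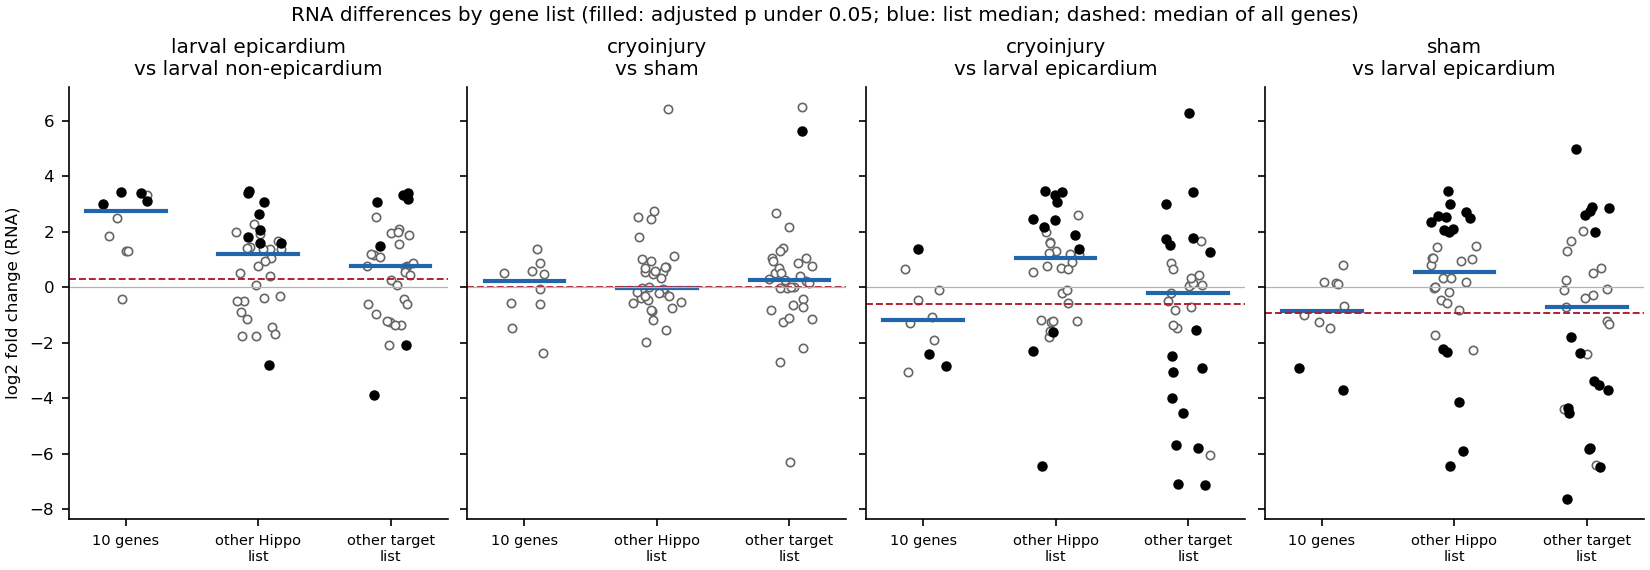
Log2 fold change of the RNA level (edgeR fit) of the 10 genes, 34 further Hippo pathway genes and 33 further target genes in 4 comparisons; filled points have an adjusted p under 0.05, blue bars are list medians and the dashed line is the median of all genes. For genes with a group at or near 0 counts the plotted value is the fitted one and no bound. The 10 genes sit above the all-gene median in larval epicardium (2.74 against 0.32), and values of the target list spread in both directions in the adult groups over larval epicardium.

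The peaks annotated to the 10 genes lay between 55452 bases upstream and 40947 bases downstream of the annotated transcription start. *ctgfa* had 11 peaks, *yap1* and *tead1a* 9 each, *wwtr1*, *tead1b* and *tead3b* 8 each, *lats2* and *cyr61* 4 each, *amotl2a* 3 and *lats1* 2. Of the 66, 39 (59.1%) were in introns, 14 (21.2%) were intergenic and 9 (13.6%) were at a promoter, against 42.9%, 24.9% and 20.6% of all peaks. Each gene except *tead1b* had 1 promoter peak. All 8 *tead1b* peaks were intronic, also those upstream of the annotated start, which is that of a transcript inside the gene. Coordinates below are on GRCz10, the build in the submitters' processing notes.

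In larval epicardium with the tcf21 reporter, 6 of the 66 peaks were more accessible and 3 less than in non-epicardium, where 13.2% of all peaks were called (6.69% more and 6.55% less accessible). With the tbx18 reporter, 9 were more accessible and 7 less, where 26.9% of all peaks were called (13.8% and 13.1%). The shares of the 66 are near these backgrounds. In tcf21 the split was 7 and 2 with median-of-ratios scaling and 8 and 1 with DESeq2. All peaks split 4523 more and 3570 less accessible, and 4464 and 3346, in these fits, against 4140 and 4056 with TMM scaling. With only the compared groups fitted the tcf21 split was 4 and 2, where all peaks split 3025 and 3303 (21.2% called). None of the 9 promoter peaks was called with either reporter by edgeR with all libraries fitted, and none by DESeq2, whereas those of *lats1* and *ctgfa* had an unadjusted p under 0.05 with at least 1 reporter. The calls lay in introns and intergenic sequence, at peaks of *ctgfa*, *tead1b*, *wwtr1*, *cyr61* and *tead1a* with tcf21, and also of *yap1*, *tead3b* and *lats2* with tbx18.

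**Figure D4:**
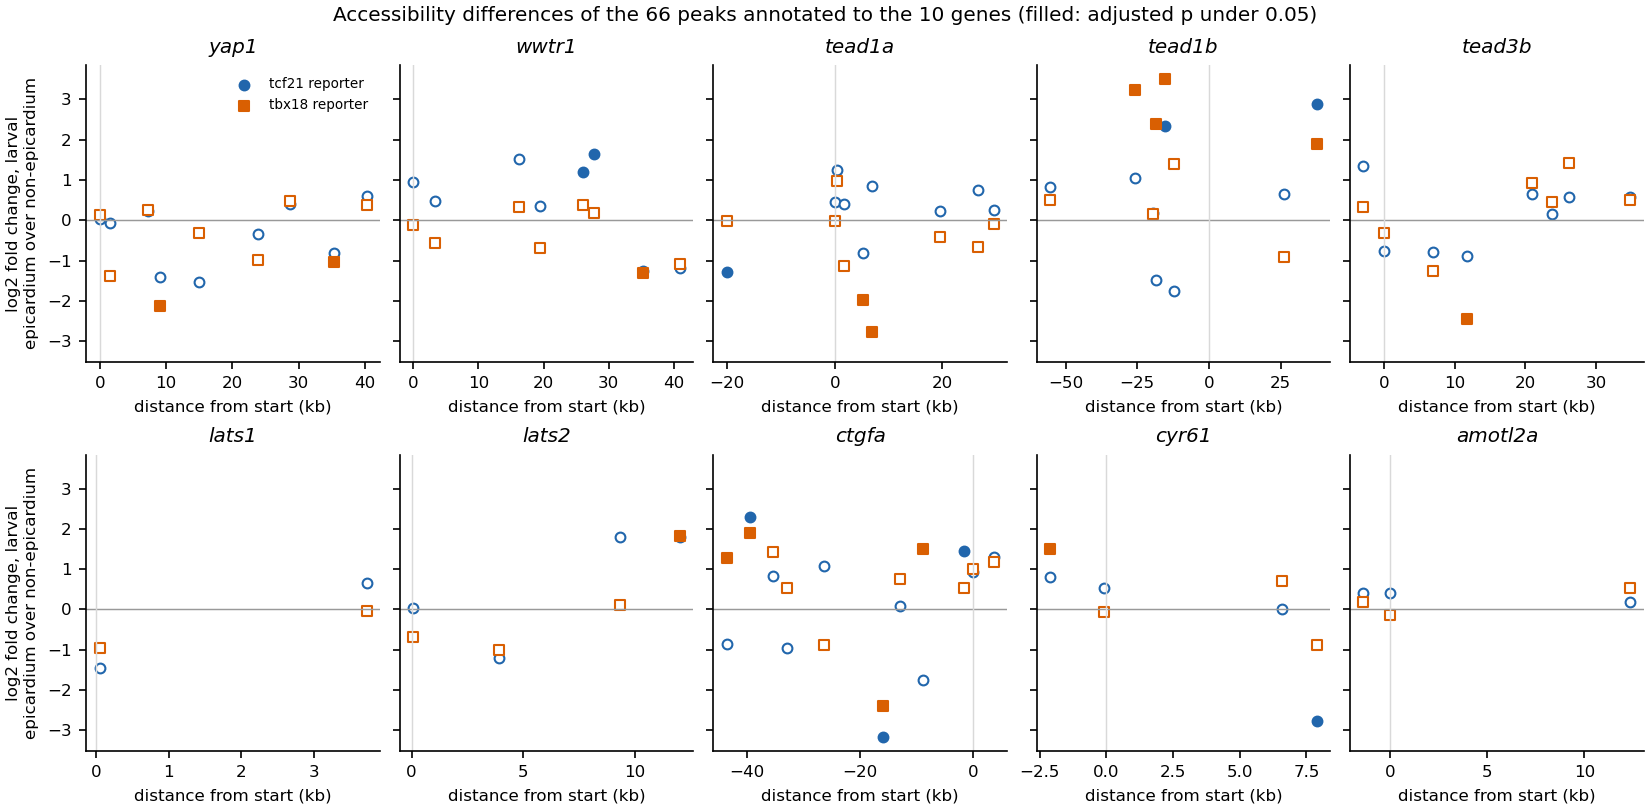
Log2 fold change of accessibility in larval epicardium over non-epicardium (edgeR) at each of the 66 peaks against its distance from the annotated start (kb, scale differs by gene), with the tcf21 reporter as circles and the tbx18 reporter as squares; filled symbols have an adjusted p under 0.05. At *tead1b* all 6 filled symbols are above 0, at *ctgfa* 5 are above and 2 below, and the symbols at distance 0 are open in every panel that has one.

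The peak of *ctgfa* that was more accessible in epicardium with both reporters is intergenic, 39445 bases upstream of the start (chromosome 20, bases 25402029 to 25402529). It had 29.1 and 42.1 CPM in tcf21 epicardium and 7.98 and 5.83 CPM in tcf21 non-epicardium (log2 2.30, SE 0.58, adjusted p = 0.00538, edgeR). With tbx18 it had 17.3 and 17.4 CPM in epicardium and 4.86 and 4.21 CPM in non-epicardium (log2 1.90, SE 0.54, adjusted p = 0.00643, edgeR). The groups did not overlap in either reporter. Leaving out 1 of 2 ATAC libraries leaves a group of 1, which is assumed to vary like the other groups. The calls were lost without tcf21 non-epicardium replicate 1 (adjusted p = 0.0532) and without tbx18 non-epicardium replicate 1 (adjusted p = 0.0617, both edgeR). Another intergenic *ctgfa* peak, 1640 bases upstream, had 67.1 and 72.1 CPM in tcf21 epicardium and 28.4 and 21.0 CPM in tcf21 non-epicardium (log2 1.46, SE 0.40, adjusted p = 0.0103, edgeR). Its call was lost without tcf21 non-epicardium replicate 2 (adjusted p = 0.0628, edgeR), and with tbx18 it was not called (log2 0.53, SE 0.35, adjusted p = 0.275) except with only the compared groups fitted (log2 0.61, adjusted p = 0.0374, edgeR). The promoter peak of *ctgfa*, 89 bases upstream, had 25.7 and 42.1 CPM in tcf21 epicardium and 12.5 and 24.5 CPM in tcf21 non-epicardium, without overlap and without a call (log2 0.93, SE 0.51, adjusted p = 0.241, edgeR). With tbx18 it had 46.9 and 29.3 CPM in epicardium and 23.7 and 13.7 CPM in non-epicardium (log2 1.0, SE 0.44, adjusted p = 0.0878, edgeR). It was called there with only the compared groups fitted (adjusted p = 0.0194) and with counts halved (adjusted p = 0.0191, both edgeR).

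At 1 *ctgfa* peak, named here after its values were seen, accessibility was lower in epicardium with both reporters. It lies 15942 bases upstream and was at or under 3 counts in both tcf21 epicardium libraries, at least 2.94-fold below the mean of 11.6 CPM in tcf21 non-epicardium. The call (adjusted p = 0.0440, edgeR) was lost without any 1 of 3 tcf21 libraries (epicardium replicate 1 or 2, or non-epicardium replicate 1; adjusted p from 0.178 to 0.297). The tcf21 call was also lost with counts halved (adjusted p = 0.122, edgeR). In tbx18 the log2 fold change was -2.40 (SE 0.77, adjusted p = 0.0170, edgeR). It was lost without epicardium replicate 2 (adjusted p = 0.138) or non-epicardium replicate 1 (adjusted p = 0.426).

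*tead1b* had more accessible peaks with both reporters and no less accessible one. The peak 15453 bases upstream (chromosome 7, bases 65636984 to 65637484, intron) had 21.2 and 31.5 CPM in tcf21 epicardium and 3.99 and 7.0 CPM in tcf21 non-epicardium. With tbx18 it had 15.5 and 15.4 CPM in epicardium and 1.44 and 1.05 CPM in non-epicardium. It was called in tcf21 (log2 2.33, SE 0.67, adjusted p = 0.0144, edgeR) and in tbx18 (log2 3.51, SE 0.68, adjusted p = 0.000116, edgeR), where it held without any 1 library. In tcf21 it was lost without epicardium replicate 2 (adjusted p = 0.0891) or non-epicardium replicate 1 (adjusted p = 0.204, edgeR). The peak 37550 bases downstream, named after its values were seen, had 41.4 and 21.0 CPM in tcf21 epicardium and 5.99 and 1.17 CPM in tcf21 non-epicardium (log2 2.89, SE 0.66, adjusted p = 0.00206, edgeR). With tbx18 it had 33.4 and 25.1 CPM in epicardium and 8.99 and 6.32 CPM in non-epicardium (log2 1.90, SE 0.54, adjusted p = 0.00718, edgeR). Both calls were lost without epicardium replicate 1 of the reporter (adjusted p = 0.0605 in tcf21 and 0.0759 in tbx18, edgeR).

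**Figure D5:**
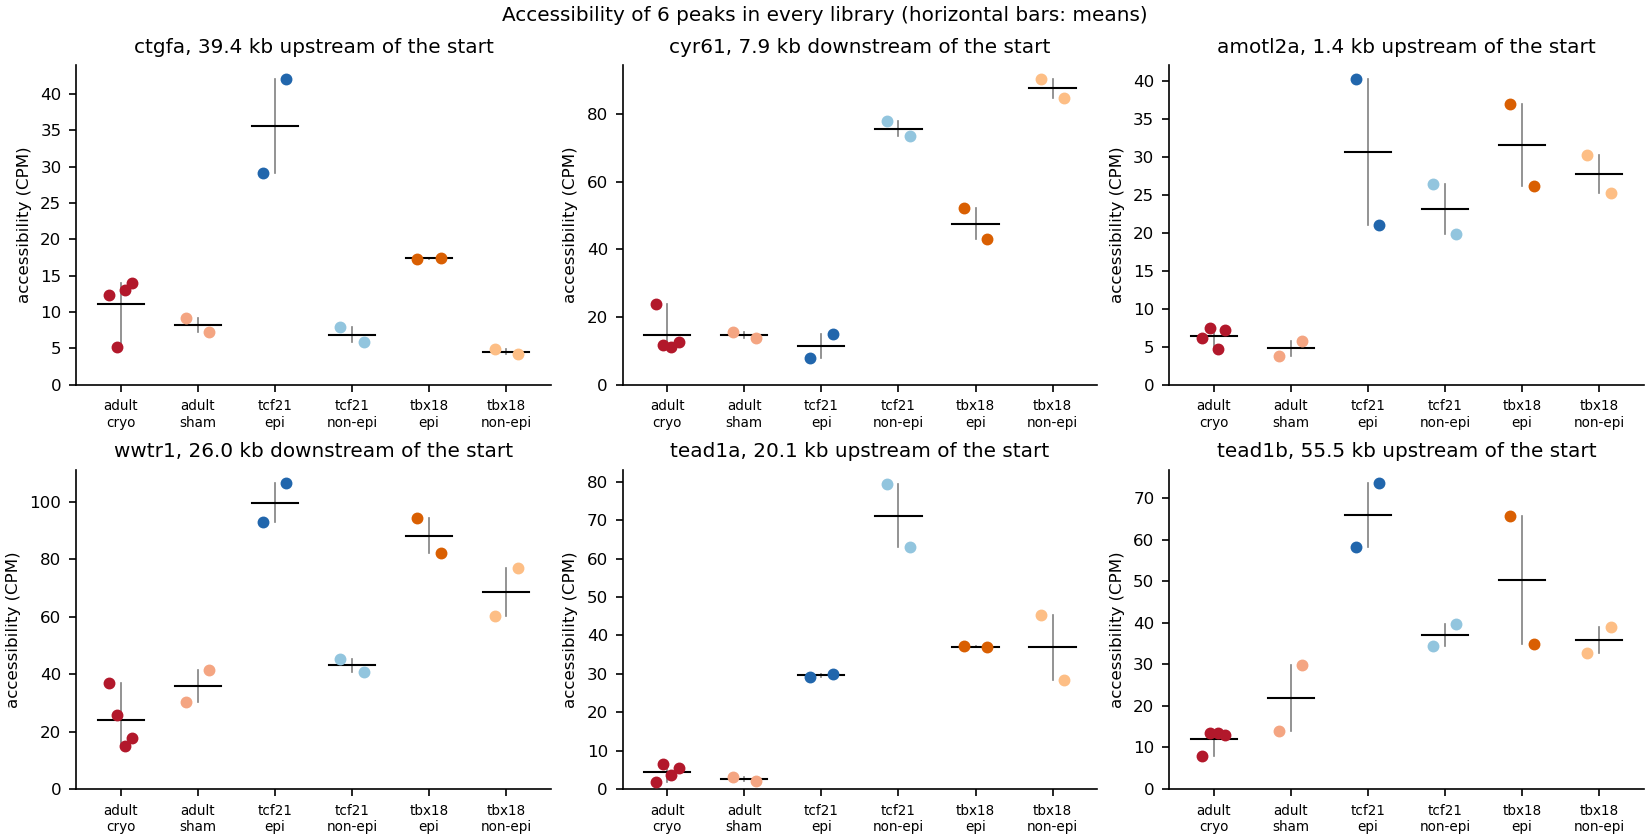
Accessibility (CPM, linear axis from 0) in all 14 ATAC libraries, by group, of the peak with the lowest adjusted p in any ATAC comparison at each of 6 genes; points are libraries, horizontal bars group means and vertical lines the range. At the *ctgfa* peak the larval epicardium libraries lie above their non-epicardium, at the *cyr61* peak both non-epicardium groups lie above all other groups, and at the *amotl2a* and *tead1a* peaks both adult groups lie below all larval groups.

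In the other target genes, a *cyr61* peak 7892 bases downstream (chromosome 23, bases 45728802 to 45729302, intergenic) was less accessible in epicardium, although *cyr61* RNA was not called. It had 7.83 and 15 CPM in tcf21 epicardium and 77.8 and 73.5 CPM in tcf21 non-epicardium (log2 -2.77, SE 0.48, adjusted p = 7.43e-05, edgeR), and the call held without any 1 library. With tbx18 it had 52.1 and 43.1 CPM in epicardium and 90.3 and 84.8 CPM in non-epicardium (log2 -0.87, SE 0.37, adjusted p = 0.0780, edgeR). In tbx18 it was called with only the compared groups fitted (adjusted p = 0.0100) and with counts halved (adjusted p = 0.0397, both edgeR). The groups were apart in both reporters, and the difference between the reporters was not called (interaction log2 -1.89, SE 0.61, adjusted p = 0.0936, edgeR). Closer to the gene, 2119 bases upstream, a *cyr61* peak was more accessible in tbx18 epicardium, with 71.0 and 74.4 CPM against 19.6 and 32.7 CPM in tbx18 non-epicardium (log2 1.50, SE 0.40, adjusted p = 0.00393, edgeR). That call was lost without tbx18 non-epicardium replicate 1 (adjusted p = 0.129, edgeR). None of the 3 *amotl2a* peaks was called with either reporter or had an unadjusted p under 0.05.

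Of the co-activators, *wwtr1* had a pair of intronic peaks that were more accessible in tcf21 epicardium. The peak 25996 bases downstream (chromosome 22, bases 38121903 to 38122403) had 92.8 and 107 CPM in epicardium and 45.4 and 40.8 CPM in non-epicardium. Its groups were well apart (log2 1.20, SE 0.40, adjusted p = 0.0398, edgeR), but the call was lost without any 1 of the 4 tcf21 libraries (adjusted p from 0.0616 to 0.148, edgeR). The peak 27789 bases downstream behaved alike (log2 1.64, SE 0.52, adjusted p = 0.0295, and 0.0552 to 0.231 without 1 library, edgeR). Both tcf21 calls were also lost with only the compared groups fitted (adjusted p = 0.0648 and 0.0596, edgeR). With tbx18, 0 of the 8 *wwtr1* peaks were called more accessible and 1 less accessible (median log2 -0.34, against 0.72 in tcf21). *yap1* had no called peak in tcf21. In tbx18 its intronic peak 9091 bases downstream had 9.06 and 12.3 CPM in epicardium and 43.7 and 49.0 CPM in non-epicardium (log2 -2.13, SE 0.49, adjusted p = 0.000874, edgeR), a call that held without any 1 library. The *yap1* promoter peak stood at 25.6 and 23.1 CPM in tbx18 epicardium and 21.8 and 22.7 CPM in tbx18 non-epicardium.

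In the fit of all libraries, 1 of the 66 peaks had an epicardial difference that itself differed between the reporters, where 1.51% of all peaks did (1.1% with a higher value in tcf21). This was an intronic *tead1a* peak 7010 bases downstream of the start (chromosome 25, bases 16266586 to 16267086). It had 12.3 and 24.0 CPM in tcf21 epicardium and 9.48 and 10.5 CPM in tcf21 non-epicardium (log2 0.85, SE 0.64, adjusted p = 0.417, edgeR). With tbx18 it had 2.62 and 2.05 CPM in epicardium and 17.3 and 15.8 CPM in non-epicardium (log2 -2.76, SE 0.63, adjusted p = 0.000859, edgeR). The interaction was 3.61 on the log2 scale (SE 0.90, adjusted p = 0.0325, edgeR) and 3.64 with only the 8 larval libraries fitted (adjusted p = 0.0562). Another peak annotated to *tead1a*, 20097 bases upstream, lies in an intron of a different transcript from the other *tead1a* intron peaks. Whether that transcript is one of *tead1a* was not checked. This peak had 29.1 and 30.0 CPM in tcf21 epicardium and 79.3 and 63.0 CPM in tcf21 non-epicardium (log2 -1.28, SE 0.44, adjusted p = 0.0451, edgeR). That call was lost with median-of-ratios scaling (adjusted p = 0.0614, edgeR) and with DESeq2 (adjusted p = 0.0555). It was also lost without any 1 of the 4 libraries (log2 from -1.42 to -1.06).

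Further calls in tbx18 lay at a *tead3b* intron peak 11722 bases downstream and a *lats2* intron peak 12016 bases downstream. The *tead3b* peak had 4.02 and 2.05 CPM in epicardium and 17.4 and 18.4 CPM in non-epicardium (log2 -2.44, SE 0.57, adjusted p = 0.00107, edgeR), and held without any 1 library. The *lats2* peak was more accessible in epicardium, with 15.1 and 13.9 CPM against 2.88 and 5.80 CPM in non-epicardium (log2 1.83, SE 0.60, adjusted p = 0.0197, edgeR). It was lost without epicardium replicate 1 or 2 or non-epicardium replicate 1 (adjusted p from 0.0530 to 0.272, edgeR). The tbx18 calls not given peak by peak were 4 more accessible peaks, at *ctgfa* and *tead1b*, and 3 less accessible ones, at *yap1*, *wwtr1* and *tead1a*. Both *lats1* peaks were uncalled in both reporters, and its promoter peak had 11.2 and 9.01 CPM in tcf21 epicardium against 29.9 and 25.7 CPM in tcf21 non-epicardium (log2 -1.45, SE 0.56, adjusted p = 0.0775, edgeR).

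Without any 1 of the 4 tcf21 libraries fewer than the 9 peaks were called, and without any 1 of the tbx18 libraries fewer than the 16. The share of all peaks called fell too in each of these fits, which leave 1 library in a group.

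Cryoinjury was compared with sham in the adult epicardium. None of the 10 genes was called in RNA by edgeR or DESeq2. None had an unadjusted p under 0.05 in edgeR, where 3879 of the 20745 genes tested did. Of all genes, edgeR called 0.318% (0.227% higher, 0.0916% lower) and DESeq2 7.3%, and edgeR called none with only the compared groups fitted. *ctgfa* had 173, 285 and 224 CPM after cryoinjury and 88.7 and 157 CPM after sham. Its groups did not overlap, and the difference was 1.85-fold (log2 0.88, SE 0.53, adjusted p = 0.395, edgeR). *cyr61* had 75.8, 219 and 127 CPM after cryoinjury and 46.8 and 148 CPM after sham, with overlap (log2 0.53, SE 0.60, adjusted p = 0.712, edgeR). *amotl2a* had 127, 117 and 111 CPM after cryoinjury and 88.7 and 157 CPM after sham, on both sides of the injured libraries. Its log2 fold change of -0.05 (SE 0.49) became 0.21 with total-count scaling.

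The co-activator *yap1* had 183, 234 and 286 CPM after cryoinjury and 150.1 and 184 CPM after sham (log2 0.49, SE 0.49, adjusted p = 0.662, edgeR). *tead1b* had 168, 186 and 124 CPM after cryoinjury and 60.2 and 152 CPM after sham (log2 0.59, SE 0.58, adjusted p = 0.647, edgeR). *lats2* had 47.5, 100.8 and 53.9 CPM after cryoinjury and 78.4 and 119 CPM after sham (log2 -0.55, SE 0.71, adjusted p = 0.757, edgeR). All 3 overlapped between the groups. Spread between the sham libraries was large for the low genes: *wwtr1* had 19.6 and 0 CPM, *tead1a* 9.32 and 0.635, *tead3b* 43.7 and 7.20, and *lats1* 9.32 and 0.635 in sham replicates 4 and 12. After cryoinjury *wwtr1* had 11.5, 4.69 and 2.88 CPM, *tead1a* 2.19, 0.408 and 0.192, *tead3b* 15, 4.90 and 7.86, and *lats1* 12.8, 8.77 and 17.6. Sham replicate 4 was above all injured libraries for *wwtr1*, *tead1a* and *tead3b*, whereas for *lats1* it was above 1 of the 3 and replicate 12 below all of them. The adjusted p of these 4 genes was 0.349 to 0.882 (edgeR).

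Of the further pathway genes none of 34 was called by edgeR, and DESeq2 called 1. At an unadjusted p under 0.05 in edgeR there were 2 of the 34, and 3879 of the 20745 genes tested. Of the 33 target genes, *birc5a* was the 1 gene called by edgeR, and DESeq2 called 4. *birc5a* had 5.11, 9.79 and 4.60 CPM after cryoinjury and 0 and 0.212 CPM after sham. Both sham libraries were at or under 3 counts, so the difference is at least 9.62-fold (adjusted p = 0.0412, edgeR). The call was lost when only the compared groups were fitted, where no gene of the list was called, as without cryoinjury replicate 8. Without sham replicate 4 or 12, 2 genes of the list were called, with a lone sham library assumed to vary like the other groups.

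In ATAC none of the 66 peaks was called between cryoinjury and sham by edgeR or DESeq2. Of all peaks, edgeR called 0.00162% and DESeq2 0.0162%. At an unadjusted p under 0.05 in edgeR there were 4139 of the 61883 peaks tested and 6 of the 66. The lowest of these 6 was at the *yap1* intron peak 35373 bases downstream. It had 44.1, 27.5, 20.7 and 31.7 CPM after cryoinjury and 73.4 and 55.1 CPM after sham. The groups were apart, but the adjusted p was 0.568 (log2 -1.08, SE 0.32, edgeR). The *ctgfa* promoter peak had 14.1, 12.6, 7.68 and 8.85 CPM after cryoinjury and 10.9 and 19.6 CPM after sham, and the *cyr61* promoter peak 16.8, 22.7, 28.7 and 20.8 CPM after cryoinjury and 22.5 and 34.1 CPM after sham. Both overlapped between the groups.

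The adult epicardium was then set beside the larval epicardium, since the title of the series sets development beside regeneration. *ctgfa* and *cyr61* RNA was lower in both adult groups than in larval epicardium, and *tead1b* was higher after cryoinjury. Called were 1 gene higher and 2 lower after cryoinjury, where 38.1% of all genes were called (12.1% higher, 26.0% lower), and 2 lower after sham, where 37.2% were (11.5% higher, 25.6% lower). The median log2 fold change of the 10 genes was -1.18 after cryoinjury and -0.84 after sham, against -0.59 and -0.92 for all genes. The comparisons share the 3 larval libraries. With median-of-ratios scaling the calls after cryoinjury were 0 higher and 4 lower, where 2009 of all genes were higher and 6223 lower. With median-of-ratios scaling the all-gene medians were -0.96 and -1.23, and with total-count scaling -0.86 and -1.53.

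*ctgfa*, at 173 to 285 CPM after cryoinjury and 88.7 and 157 CPM after sham, was 779 CPM or more in every larval epicardium library. It was 7.07-fold lower after cryoinjury (log2 -2.82, SE 0.50, adjusted p = 0.000331, edgeR) and 13.1-fold lower after sham (log2 -3.71, SE 0.61, adjusted p = 0.000217, edgeR). *cyr61* did not overlap either and was 5.23-fold lower after cryoinjury (log2 -2.39, SE 0.56, adjusted p = 0.00338, edgeR) and 7.55-fold lower after sham (log2 -2.92, SE 0.67, adjusted p = 0.00373, edgeR). The call after sham was lost without sham replicate 4 (log2 -2.26, adjusted p = 0.0640, edgeR). *amotl2a* was below all larval epicardium libraries in both adult groups without a call (log2 -1.07, SE 0.44, adjusted p = 0.0627 after cryoinjury and log2 -1.01, SE 0.50, adjusted p = 0.116 after sham, edgeR), although it was called lower in both with median-of-ratios scaling, total-count scaling and DESeq2.

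*tead1b* moved the other way from these target genes after cryoinjury, with 124 to 186 CPM against 44.5 to 78.0 CPM in larval epicardium (log2 1.40, SE 0.52, adjusted p = 0.0387, edgeR). The call was lost with median-of-ratios scaling (adjusted p = 0.124), total-count scaling (adjusted p = 0.108) and DESeq2 (adjusted p = 0.130), and without larval epicardium replicate A, B or C or cryoinjury replicate 7 or 8 (adjusted p from 0.0502 to 0.129, edgeR). After sham it had log2 0.80 (SE 0.56, adjusted p = 0.266, edgeR). *tead1a* had log2 -3.04 after cryoinjury (SE 1.27, adjusted p = 0.0641, edgeR), not called, at 0.192 to 2.19 CPM against 3.30 to 14.1 CPM. It was called lower with median-of-ratios scaling (adjusted p = 0.0466, edgeR), with DESeq2 (adjusted p = 0.00680) and without cryoinjury replicate 7. *yap1* was at 183 to 286 CPM after cryoinjury against 103 to 172 CPM, apart but not called (log2 0.67, SE 0.43, adjusted p = 0.244, edgeR). *lats2* overlapped larval epicardium in both adult groups, with log2 fold changes of -0.44 (SE 0.64) after cryoinjury and 0.11 (SE 0.71) after sham. For *wwtr1*, *tead3b* and *lats1* the adjusted p was 0.189 to 0.949 after cryoinjury and 0.244 to 0.913 after sham (edgeR). Without sham replicate 4, *wwtr1* and *lats1* were called lower after sham (adjusted p = 0.00549 and 0.0346, edgeR), but on a lone sham library at or under 3 counts for both genes, with its spread taken from the other groups.

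In the list of further pathway genes, 9 were higher and 3 lower after cryoinjury (26.5% and 8.82%, against 12.1% and 26.0% of all genes). After sham 10 were higher and 5 lower (29.4% and 14.7%, against 11.5% and 25.6%). The share called in either direction was 35.3% after cryoinjury and 44.1% after sham, against 38.1% and 37.2% of all genes. *tjp1b*, a tight-junction scaffold gene, averaged 338 CPM after cryoinjury and 205 CPM after sham, against 31.2 CPM in larval epicardium (log2 3.44 and 2.72). *scrib*, a cell-polarity gene, averaged 82.5 and 109 CPM in these adult groups, against 9.67 CPM (log2 3.09 and 3.49). *taok3a* was higher after cryoinjury by log2 3.47, and *vgll4b*, of a family of TEAD co-regulators, higher after sham by log2 3.00. Lower in both was *mob1a*, whose product activates the LATS kinases, with log2 -1.61 after cryoinjury and -2.34 after sham, although 1 larval library, at 24.1 CPM, was below all cryoinjury libraries and between the sham ones. *dchs1a*, a protocadherin gene, was lower after cryoinjury (log2 -2.31), and *vgll4l* was at 0 CPM in all cryoinjury libraries, at least 3.09-fold below larval epicardium. Lower after sham were *nf2a*, a merlin gene, by at least 9.07-fold, and *llgl1* (log2 -2.21). With median-of-ratios scaling the splits were 7 and 4 after cryoinjury and 7 and 7 after sham. With total-count scaling they were 8 and 3, and 5 and 7. All genes split 2009 higher and 6223 lower, and 2015 and 6132, with median-of-ratios scaling. With total-count scaling they split 2116 and 5844, and 1608 and 6860, against 2518 and 5386, and 2386 and 5321, with TMM scaling. The 15 calls after sham fell to 8, 8 and 6 without larval epicardium replicate A, B and C. In these fits 25.1%, 28.9% and 26.3% of all genes were called, against 37.2% with all libraries. Without either sham library, which leaves a group of 1, fewer were called both of the list and of all genes.

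In the target list, 7 were higher and 10 lower after cryoinjury (21.2% and 30.3%, against 12.1% and 26.0% of all genes). After sham 6 were higher and 11 lower (18.2% and 33.3%, against 11.5% and 25.6%). With total-count scaling the splits were 5 and 11, and 4 and 12, where all genes split 2116 higher and 5844 lower, and 1608 and 6860. *ankrd1a*, a muscle ankyrin-repeat gene that heart muscle expresses, had 158, 303 and 68.3 CPM after cryoinjury and 136 and 6.78 CPM after sham, against 0.947 to 3.69 CPM in larval epicardium (log2 6.29 and 4.98). It was higher in adults together with the cardiomyocyte markers given above, whose part was not tested. *itgb2*, a leukocyte integrin gene, was higher after cryoinjury by log2 3.42 and *cyr61l2*, a relative of *cyr61*, by log2 3.00. The summed leukocyte markers were 265 to 543 CPM after cryoinjury against 9.60 to 22.8 CPM in larval epicardium, and their part in *itgb2* was not tested. The mural sum was 708 to 1205 CPM after cryoinjury and 623 to 1152 after sham, against 15.1 to 44.3 CPM, and the endothelial sum 301 to 436 and 510.1 to 797, against 118 to 187 CPM. Their part in the adult differences was not tested either. *thbs1b* and *crim1* were higher after sham by log2 2.59 and 1.98. In the other direction, *gadd45ba*, a stress-inducible gene, averaged 64.0 CPM after cryoinjury and 37.4 CPM after sham, against 3312 CPM (log2 -5.69 and -6.47). *f3b* averaged 106 and 108 CPM, against 2477 CPM (log2 -4.55 and -4.51). *gadd45bb* was lower after cryoinjury by log2 -7.12 and *mycb*, a Myc gene, after sham by log2 -4.35. All target-list genes named here had adjusted p from 1.2e-06 to 0.00805 (edgeR).

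In ATAC, 13 of the 66 peaks were less accessible after cryoinjury than in tcf21 larval epicardium and none more, where 14% of all peaks were called (3.98% more and 10.1% less accessible). After sham 6 were less accessible and 1 more, where 7.64% were called (2.34% more, 5.30% less). The median log2 fold change of the 66 was -0.31 after cryoinjury and -0.39 after sham, against 0.07 and 0.03 for all peaks. Both comparisons use the same tcf21 larval epicardium libraries, as does the tcf21 comparison with non-epicardium above, so these results are not independent. With total-count scaling the median of all peaks was 0.41 and 0.27. The splits of the 66 were then 3 more and 10 less accessible after cryoinjury and 2 and 6 after sham. All peaks split 5317 more and 3828 less accessible, and 2557 and 2104, with this scaling.

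Both promoter peaks of the secreted-factor genes were among the 13. The *amotl2a* promoter peak, 40 bases upstream, was not among them. It was called less accessible after cryoinjury with median-of-ratios scaling (log2 -1.07, adjusted p = 0.0397, edgeR) and by DESeq2 (log2 -1.07, adjusted p = 0.0396). The *ctgfa* promoter peak had 14.1, 12.6, 7.68 and 8.85 CPM after cryoinjury and 25.7 and 42.1 CPM in larval epicardium (log2 -1.68, SE 0.43, adjusted p = 0.00612, edgeR). Its call was lost without tcf21 larval epicardium replicate 2 (adjusted p = 0.132, edgeR). The *cyr61* promoter peak, 91 bases upstream, had 16.8, 22.7, 28.7 and 20.8 CPM after cryoinjury and 57.0 and 57.1 CPM in larval epicardium (log2 -1.34, SE 0.34, adjusted p = 0.00502, edgeR), and held without any 1 library. After sham neither was called by edgeR (log2 -1.18, adjusted p = 0.137 and log2 -1.03, adjusted p = 0.0988, edgeR). The *cyr61* promoter peak was called less accessible after sham by DESeq2 (log2 -1.12, adjusted p = 0.0478). The *ctgfa* peak 39445 bases upstream had 12.3, 5.23, 13 and 14 CPM after cryoinjury and 9.21 and 7.25 CPM after sham, against 29.1 and 42.1 CPM (log2 -1.65 and -2.07, adjusted p = 0.00919 and 0.0144, edgeR). The call after cryoinjury was lost without tcf21 larval epicardium replicate 2 (adjusted p = 0.122), and that after sham without this library or either sham library (adjusted p from 0.0836 to 0.0959, edgeR). The *ctgfa* peak 1640 bases upstream was less accessible after cryoinjury (log2 -0.97, adjusted p = 0.0381, edgeR). This call was lost without cryoinjury replicate 3 or 4 (adjusted p = 0.0900 and 0.0633, edgeR) and without either larval epicardium library (log2 -1.06 and -1.01). It was also lost with total-count scaling (log2 -0.63, adjusted p = 0.143) and with only the compared groups fitted (adjusted p = 0.0587, both edgeR). An *amotl2a* peak 1397 bases upstream had 6.17, 7.41, 4.67 and 7.20 CPM after cryoinjury and 3.75 and 5.80 CPM after sham, against 40.3 and 21.0 CPM (log2 -2.27 and -2.76, adjusted p = 0.000169 and 0.000953, edgeR). The first was lost without larval epicardium replicate 1 (adjusted p = 0.0593) and the second without sham replicate 1 (adjusted p = 0.0504, edgeR).

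At *tead1b*, the called peaks were less accessible in the adult groups. Its intron peak 55452 bases upstream had 7.94, 13.5, 13.4 and 13 CPM after cryoinjury and 14 and 29.7 CPM after sham, against 58.1 and 73.6 CPM in larval epicardium (log2 -2.41 and -1.63, adjusted p = 5.63e-06 and 0.0148, edgeR). The call after cryoinjury held without any 1 library, and that after sham was lost without larval epicardium replicate 2 (adjusted p = 0.0672) or sham replicate 1 (adjusted p = 0.232, edgeR). The peak 15453 bases upstream had 4.41, 6.11, 2.67 and 3.29 CPM after cryoinjury against 21.2 and 31.5 CPM (log2 -2.70, adjusted p = 0.0003, edgeR) and held likewise. Another *tead1b* intron peak, 18443 bases upstream and named after its values were seen, lay the other way, with 14.1, 13.1, 11.4 and 14.4 CPM after cryoinjury against 2.24 and 3.00 CPM, at or under 3 counts in both larval libraries. It was at least 3.37-fold higher without a call (adjusted p = 0.0507), and was called with only the compared groups fitted (adjusted p = 0.0170) and with total-count scaling (adjusted p = 0.0255, edgeR). The *tead1a* peak 20097 bases upstream had 1.76, 6.54, 3.67 and 5.56 CPM after cryoinjury and 3.07 and 2.17 CPM after sham, against 29.1 and 30.0 CPM (log2 -2.64 and -3.41, adjusted p = 1.6e-05 and 9.27e-05, edgeR), and both calls held without any 1 library. The *wwtr1* peak 25996 bases downstream had 37.0, 25.7, 15 and 17.9 CPM after cryoinjury and 30.4 and 41.3 CPM after sham, against 92.8 and 107 CPM (log2 -2.11 and -1.49, adjusted p = 1.38e-05 and 0.0164, edgeR). The first held without any 1 library, and the second was lost without larval epicardium replicate 2 or either sham library (adjusted p from 0.0530 to 0.174, edgeR). The 1 more accessible peak, named after its values were seen, is intronic in *tead3b*, 20970 bases downstream, with 58.0 and 63.8 CPM after sham against 12.3 and 30.0 CPM (log2 1.56, adjusted p = 0.0310, edgeR). It was lost without larval epicardium replicate 1 or either sham library (adjusted p from 0.0982 to 0.348, edgeR). Fewer than the 7 peaks after sham were called without larval epicardium replicate 2 or either sham library. The share of all peaks called fell too in each of these fits, which leave 1 library in a group.

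Across the 4 RNA groups the order of levels differed by gene. By mean, *ctgfa* ran from larval epicardium (1606 CPM) over cryoinjury (227), larval non-epicardium (149) and sham (123), and only the first step had no overlap between neighbouring groups. *cyr61* ran from larval epicardium (735) over larval non-epicardium (299), cryoinjury (141) and sham (97.3), and each neighbouring pair overlapped. *amotl2a* ran from larval epicardium (248) over sham (123) and cryoinjury (118), which overlapped, to larval non-epicardium (31.1), with gaps at both ends. *yap1* and *tead1b* ran from cryoinjury over sham and larval epicardium to larval non-epicardium, with a gap at the last step alone. *lats2* ran from sham (98.7) over larval epicardium (91.6) and cryoinjury (67.4), which overlapped, to larval non-epicardium (8.70), which was apart. All neighbours overlapped for *wwtr1*, *tead1a*, *tead3b* and *lats1*.

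Per kilobase of gene length, *ctgfa* had the highest level of the 10 genes in larval epicardium, at 758 ± 412 CPM per kb (SD, n = 3), followed by *cyr61* at 286 ± 136. In larval non-epicardium *cyr61*, at 117 ± 48.5 CPM per kb, and *ctgfa*, at 70.5 ± 18.7, had overlapping ranges, with *cyr61* above *ctgfa* in every library (SD, n = 3). Of the co-activators *yap1* was above *wwtr1* in every library, with 37.5 ± 9.89 CPM per kb against 13.2 ± 3.52 in larval epicardium (SD, n = 3) and 59.5 ± 13 against 3.56 ± 2.55 after cryoinjury (SD, n = 3). Of the duplicated TEAD genes, *tead1b* had 16.6 ± 3.34 CPM per kb after cryoinjury, against 0.444 ± 0.524 for *tead1a* (SD, n = 3). In larval non-epicardium *tead1b* and *tead1a* had 0.721 ± 0.346 and 1.04 ± 0.206 CPM per kb, with overlap. *lats2* was above *lats1* in every library of the adult groups and of larval epicardium, at 12.8 ± 5.79 against 1.81 ± 0.650 CPM per kb in larval epicardium (SD, n = 3), whereas in larval non-epicardium the pair had 1.22 ± 0.976 and 2.45 ± 1.35.

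For the 5 genes called in at least 1 RNA comparison, the genes with the most similar profile were sought among 10757 genes with a mean of at least 5 CPM, by Pearson's correlation of log2(CPM + 1) over the 11 libraries. The libraries fall into 4 groups, so that these values mostly describe group means. They were *cd81a* (0.987) and *rab32a* (0.970) for *ctgfa*, *slc38a5b* (0.979) and *pdlim1* (0.976) for *cyr61*, *slc43a3b* (0.982) and *ebf3a* (0.979) for *amotl2a*, *phf21ab* (0.985) and *efnb2a* (0.981) for *tead1b*, and *plcb3* (0.971) and *arhgap21a* (0.968) for *lats2*.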

How the data were processed

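The deposited RNA table holds read counts per gene, and the deposited ATAC table read counts per peak, raised by the authors to a lowest value of 1, so that a 1 can be 1 read or none. The deposited ATAC table also holds FPKM values made by the authors, which were not used, and the deposited peak annotation gives the GC fraction and the gene of each peak. Per the submitters' processing notes, the tools were Bowtie 1.2.3, SAMtools 1.10, MACS2 2.2.7.1, HOMER, DiffBind 3.0.13, STAR 2.7.3a, featureCounts and edgeR 3.32.1, on GRCz10. Per the labels, RNA libraries were made with the SMART-Seq v4 and Nextera XT kits, which do not mark strand, and duplicated zebrafish genes may share reads.

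The two-sided quasi-likelihood test of edgeR 4.0.16 (R 4.3.3) was run on the counts, all libraries of an assay in 1 fit with 1 mean per group, TMM scaling, filterByExpr (minimum count 10, minimum total 15) and Benjamini-Hochberg adjustment over all features, with a threshold of 0.05. SE is the log2 fold change over the root of the F statistic. The floor for a bound on a fold is 3 counts per library. Scripts were tested on simulated data. The larval RNA columns are numbered otherwise than the sample titles, so these libraries are called A, B and C. Alternatives were other scalings, DESeq2 1.42.0, no filter, the compared groups alone, halved ATAC counts, a replicate block and leaving out each library. The 10 genes and both lists were chosen with earlier results of these data known. Named from the lists were up to 3 called genes in each direction per comparison, by lowest adjusted p. Named peaks were the one nearest the start of each gene and up to 2 others of lowest adjusted p.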

Additional observations from a re-analysis of the deposited data

Results flagged for a closer look

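In 6 of the 66 peaks, 1 of the 4 adult cryoinjury ATAC libraries stood apart from the other 3, with a gap over range above Dixon's critical value. Chance gives this in about 1 in 20 groups if the libraries spread alike. Replicate 1 had the lowest total, 1070024 counts, against 2000665 to 3817831 in the other cryoinjury libraries. Peaks outside the 66 were not screened. Replicate 1 had 23.8 CPM at the *yap1* peak 1517 bases downstream (others 11 to 11.8), 57.3 CPM at the *ctgfa* peak 26450 bases upstream (others 30.5 to 31.8) and 23.8 CPM at the *cyr61* peak 7892 bases downstream (others 11 to 12.6). It had 7.94 CPM at the *tead1b* peak 55452 bases upstream, below the others at 13 to 13.5. Replicate 2 had 25.3 CPM at the *tead3b* peak 34855 bases downstream (others 16.8 to 17.0), and replicate 4 had 6.79 CPM at the *lats1* peak 3723 bases downstream (others 3.05 to 3.53).

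The epicardial difference at the *tead1a* peak 7010 bases downstream differed between the tcf21 and tbx18 reporters by 3.61 on the log2 scale (adjusted p = 0.0325, edgeR).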

How the results depend on the processing

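Direction changed in single genes that were not called. In sham over larval epicardium the log2 fold changes with median-of-ratios scaling, total-count scaling and DESeq2 were -0.11, -0.47 and -0.11 for *tead3b*, -0.089, -0.33 and -0.089 for *yap1*, and -0.12, -0.33 and -0.12 for *lats2*. With total-count scaling *lats1* was 0.24 in larval epicardium over non-epicardium, and *amotl2a* and *wwtr1* were 0.21 and 0.027 in cryoinjury over sham. Leaving out 1 library gave -0.76 to 0.20 for *lats1* in larval epicardium over non-epicardium and -0.35 to 0.31 in cryoinjury over larval epicardium. In sham over larval epicardium it gave -3.54 to 0.22 for *tead1a*, -0.039 to 1.37 for *tead1b*, -1.62 to 1.28 for *tead3b*, -0.0061 to 0.37 for *yap1* and -0.26 to 0.48 for *lats2*. In cryoinjury over sham it gave -0.11 to 1.63 for *cyr61*, -3.97 to 0.51 for *tead1a*, -0.45 to 0.46 for *amotl2a*, -2.20 to 0.32 for *tead3b* and -1.58 to 8.27 for *wwtr1*, where 8.27 is a fitted value over 1 sham library at 0 counts and no measure of size. The *wwtr1* peak 35258 bases downstream was not called in cryoinjury over larval epicardium with all libraries fitted. It had -1.99 without tcf21 larval epicardium replicate 2 and 1.40 without replicate 1, the ends of its range. The cause was not tested. A group left with 1 library is assumed to vary like the others.

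Counts of calls moved as follows. In larval epicardium over non-epicardium the 4 of 10 genes became 8 with total-count scaling, 7 with DESeq2 and 8 with the compared groups alone. The 9 pathway genes became 16 with DESeq2, 15 with the compared groups and 4 to 8 without 1 library, and the 7 target genes 12, 12 and 14 with total-count scaling, DESeq2 and the compared groups, while the share of all genes called moved too. In cryoinjury over sham DESeq2 called 1 pathway gene, and the 1 target gene became 2 with total-count scaling, 4 with DESeq2, 0 with the compared groups and 0 to 2 without 1 library. In cryoinjury over larval epicardium the compared groups gave 5 of 10 genes, where 34.6% of all genes tested were called. In sham over larval epicardium fewer pathway genes than 15 were called without 1 library, where the share of all genes called fell too. Of the peaks, tbx18 gave 25 with the compared groups and 26 with halved counts, where 33.1% and 33.9% of all peaks were called. Without 1 library fewer peaks were called in tcf21, in tbx18 and in sham over larval epicardium, where the share of all peaks called fell too. The 1 peak that differed between reporters became 0 with only the larval libraries, where 0.308% of all peaks tested differed.

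The RNA adult groups share no replicate number. The larval RNA columns share numbers that are not those of the titles. Same-numbered libraries had correlations of deviations of 0.0564, -0.196 and -0.0977, and not every library correlated best with its own number. Deviations from the means of so few libraries cannot decide whether same-numbered libraries are paired. With the replicate block 6 of the 10 genes, 13 pathway genes and 14 target genes were called in larval epicardium over non-epicardium, where 26.5% of all genes were. ATAC groups share only a number: same-numbered libraries had correlations of 0.0520 in tcf21 and 0.124 in tbx18. With the replicate block the calls were 8 in tcf21 and 29 in tbx18, where 23.1% and 37.7% of all peaks were called. There were 0 in cryoinjury over sham (0.0388% of all peaks), 8 in cryoinjury over larval epicardium (11.3%) and 7 in sham over larval epicardium (11.8%). Between reporters 2 peaks differed, where 2.91% of all peaks did. The second was the *cyr61* peak 7892 bases downstream (log2 -1.88, adjusted p = 0.0484, edgeR). The block also called the tbx18 difference at the *ctgfa* and *lats2* promoter peaks (adjusted p = 0.00257 and 0.0349, edgeR). Of 1285 values of single genes or peaks under alternatives, 1064 kept their direction and side of the threshold and 30 changed direction, none of them called. The tcf21 larval ATAC libraries, with 755606 to 2273259 counts, limit the comparisons that use them.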

Other observations

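*ctgfa* and *amotl2a* had the same counts in both sham RNA libraries, 371 in replicate 4 and 743 in replicate 12, so that their levels there are equal. Likewise *lats1* and *tead1a* had 39 and 3 counts in these libraries, as did 4 genes in all. Of 1919 genes with at least 300 counts in both sham libraries, 12 shared both counts with another gene.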
